A study of Mus musculus with 53 samples.

Results

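Cortex of MJD84.2 mice, a mouse model of spinocerebellar ataxia type 3 (SCA3), was compared with cortex of wild-type C57BL/6 mice by RNA sequencing. The comparison took every library labelled as cortex, which were 13 of the 53 libraries of the series, and consisted of 7 wild-type and 6 SCA3 libraries with 1 mouse each. The SCA3 mice were hemizygous and carried the full-length human ATXN3 gene, its CAG repeat expanded, under its own promoter and beside their unaltered mouse Atxn3 gene. The study describes expression of the transgene as ubiquitous, which was not measured here, and neither group was treated. All mice were males, aged 74 to 77 weeks. The other 40 libraries came from brainstem, cerebellum and striatum of the same cohort, which together with cortex comprised 14 mice.

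SCA3 is caused by a lengthened glutamine stretch in ataxin-3, an enzyme that removes ubiquitin from proteins, and is best known for loss of neurons in brainstem and cerebellum. The cortex is less affected. It contains glutamatergic and inhibitory neurons, astrocytes, microglia, vessels and the oligodendrocyte lineage, in which dividing precursors become premyelinating cells and then mature oligodendrocytes that wrap axons in myelin. Enpp6 and Zfp488 are genes of the newly differentiating stage of that lineage, and Mbp encodes a main protein of finished myelin.

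In cortex 35 of 12372 genes were called different between SCA3 and wild-type, 30 higher and 5 lower in SCA3. This is 0.283% of the genes tested, 0.242% in the higher and 0.0404% in the lower direction, at a false discovery rate (FDR) below 0.05 in the edgeR likelihood ratio test. The clearest increases were in Zfp488 and Enpp6, and the clearest decreases in Car2 and Il33. The smallest absolute log2 fold change among the called genes was 0.38 and the largest 1.45, and 3 genes reached a change of 1 or more. Over all genes the median log2 fold change was -0.001 and the median absolute change was 0.06. At an unadjusted p below 0.05 there were 367 genes, of which 255 were higher (2.06%) and 112 lower (0.905%). Together these are a smaller share of all genes than the 0.05 expected if no gene differed. The weakest call was Acan (FDR 0.049), and the first gene beyond the threshold was Stard13 (FDR 0.055).

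The edgeR quasi-likelihood F test called 10 genes (0.0808%), and all 10 were among the 35. They were Car2, Enpp6, Il33, Zfp488, Rnf43, Tmc3, Chdh, Chil1, Psat1 and P2rx7. For 17 of the 35 called genes, 14 higher and 3 lower, no SCA3 library overlapped the wild-type range. Over all 12372 genes the groups did not overlap for 31 genes (0.251%). With RNA integrity as a covariate 17 genes were called, 15 of them among the 35. Without SCA3 mouse 9083514 the number was also 17, all of them among the 35.

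**Figure D1:**
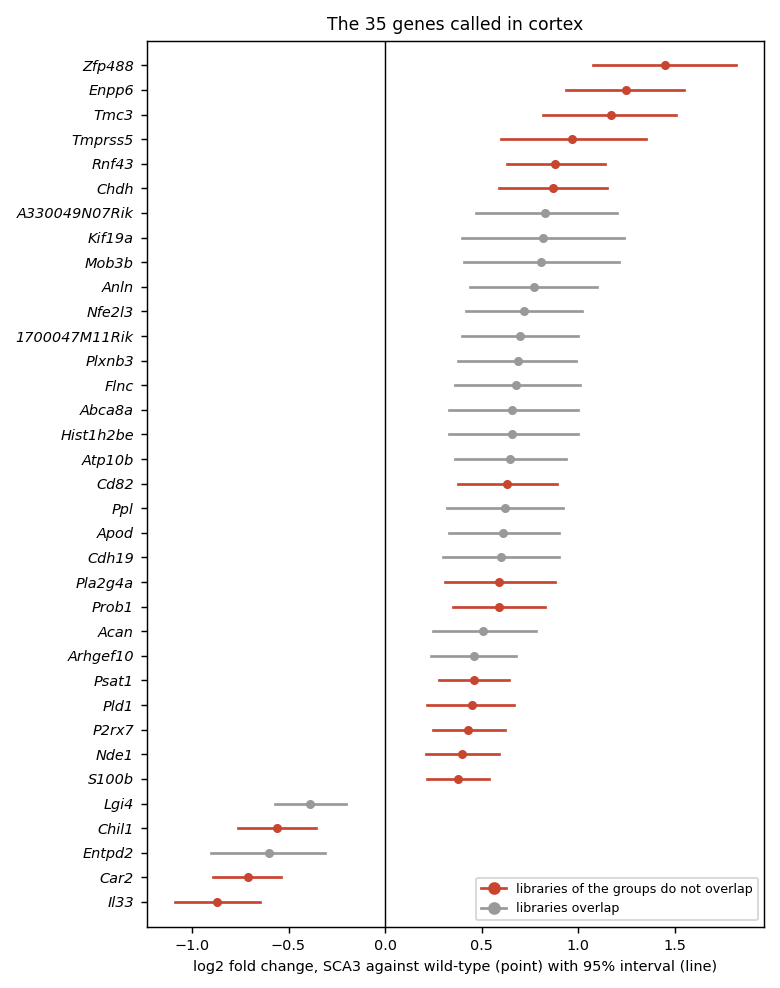
Log2 fold change (x axis) of SCA3 against wild-type cortex for each of the 35 called genes (y axis), with its 95% interval as a line. Genes whose libraries do not overlap between the groups are red and the others grey. Zfp488 has the largest increase at 1.45 and Il33 the largest decrease at -0.87.

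Levels are given as CPM (read counts brought to the same library size, adjusted by TMM), as lowest, median and highest library, and fold changes as log2 of SCA3 over wild-type with their standard error (SE) and adjusted p from the edgeR likelihood ratio test. The mouse Atxn3 gene, on chromosome 12, lay at 39.5, 41.7 and 45.8 CPM in wild-type and at 43.6, 46.4 and 49.5 CPM in SCA3. The ranges overlapped, and the log2 difference of 0.15 (SE 0.07) was not called (unadjusted p = 0.038, FDR 1). The human transgene is no row of the mouse gene table, so these counts do not check its presence, and whether reads of the transgene were counted as mouse Atxn3 was not tested.

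Markers of the oligodendrocyte lineage were among the called genes in both directions, with Enpp6, Zfp488 and Anln higher and Car2 lower. Because these are bulk samples, fewer cells of a type and less RNA per cell cannot be told apart. For the 3 lineage markers that were higher, the 250 bases before the 1 start listed in the RefSeq promoter table (build GRCm38.p6) are given here. They are Zfp488 (chr14:33978765-33979014, minus strand), Enpp6 (chr8:46986637-46986886, plus strand) and Anln (chr9:22389207-22389456, minus strand). The RefSeq gene spans begin at 46939197 for Enpp6 and reach up to 33979034 for Zfp488, so these 2 windows lie inside the span of their gene and other starts are possible.
Zfp488: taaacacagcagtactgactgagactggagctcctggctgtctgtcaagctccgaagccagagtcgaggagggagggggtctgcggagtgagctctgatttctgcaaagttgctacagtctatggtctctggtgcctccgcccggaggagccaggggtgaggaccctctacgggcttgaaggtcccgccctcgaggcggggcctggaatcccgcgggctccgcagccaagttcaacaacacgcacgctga
Enpp6: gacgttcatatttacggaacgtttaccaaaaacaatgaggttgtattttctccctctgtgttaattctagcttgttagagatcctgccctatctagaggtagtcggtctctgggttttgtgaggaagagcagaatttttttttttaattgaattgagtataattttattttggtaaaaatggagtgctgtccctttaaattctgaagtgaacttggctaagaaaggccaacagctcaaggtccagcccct
Anln: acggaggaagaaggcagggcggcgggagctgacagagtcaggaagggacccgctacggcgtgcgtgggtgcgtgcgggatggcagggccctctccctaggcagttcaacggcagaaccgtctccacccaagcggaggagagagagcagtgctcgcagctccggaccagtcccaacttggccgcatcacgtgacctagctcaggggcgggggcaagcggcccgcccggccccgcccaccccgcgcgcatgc

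SOX factors direct this lineage. The letters ACAAAG, a form of the core they recognise, are in none of the 3 windows on either strand. Other forms of that core were not searched for, so these counts cover only part of the possible SOX sites. RefSeq windows were found for 24 of the 30 higher genes (37 windows), of which 8 held ACAAAG on either strand (21.6%), and for 3 of the 5 lower genes (4 windows, 0 with it). Among 12782 windows of all tested genes 1539 held it (12.0%). The cAMP response element TGACGTCA was in 0 of the 37 windows of higher genes and in 329 of the 12782 (2.57%). These are counts of letters, and the windows of a gene can overlap.

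Zfp488, a zinc finger protein that promotes oligodendrocyte differentiation, lay at 1.93, 3.67 and 4.09 CPM in wild-type and at 6.99, 8.89 and 11.7 CPM in SCA3. Every SCA3 library was above every wild-type library, and Zfp488 rose by 1.45 on the log2 scale (SE 0.19, FDR 5.8e-11), a 2.74-fold change. Enpp6 encodes a phosphodiesterase of choline metabolism and marks oligodendrocytes about to form myelin. It lay at 4.11, 5.47 and 7.45 CPM in wild-type and at 10.4, 13.5 and 15 CPM in SCA3. These ranges did not overlap either, and Enpp6 rose by 1.25 (SE 0.16, FDR 1e-11).

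Anln encodes anillin, a scaffold protein of septin and actin filaments that also lies in myelin. It lay at 41.2, 52.0 and 66.6 CPM in wild-type and at 60.5, 96.9 and 114 CPM in SCA3. It rose by 0.77 (SE 0.17, FDR 0.0035), although the lower SCA3 libraries fell within the wild-type range. Of called genes on neither lineage list, Plxnb3, a plexin receptor for semaphorins, rose by 0.69 (SE 0.16, FDR 0.0063), from 32.1, 50.6 and 58.9 CPM to 58.7, 76.9 and 96.8 CPM, with a narrow overlap. Apod, a lipid-carrying lipocalin, lay at 110, 165 and 178 CPM in wild-type and at 174, 231 and 328 CPM in SCA3 and rose by 0.61 (SE 0.15, FDR 0.017). Its highest level was in SCA3 mouse 9083514. Cd82, a tetraspanin of the cell surface, rose by 0.63 (SE 0.13, FDR 0.0018) and did not overlap between the groups.

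Car2, carbonic anhydrase 2, an enzyme of mature oligodendrocytes that interconverts carbon dioxide and bicarbonate, went the other way. It lay at 148, 185 and 199 CPM in wild-type and at 98.4, 110 and 123 CPM in SCA3. The groups did not overlap, and Car2 fell by 0.71 on the log2 scale (SE 0.088, FDR 8.3e-12). Il33, a nuclear cytokine made by glia in the brain, lay at 45.8, 66.5 and 76.0 CPM in wild-type and at 33.0, 35.4 and 38.4 CPM in SCA3. All SCA3 libraries were below all wild-type libraries, and Il33 fell by 0.87 (SE 0.11, FDR 4e-11).

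**Figure D2:**
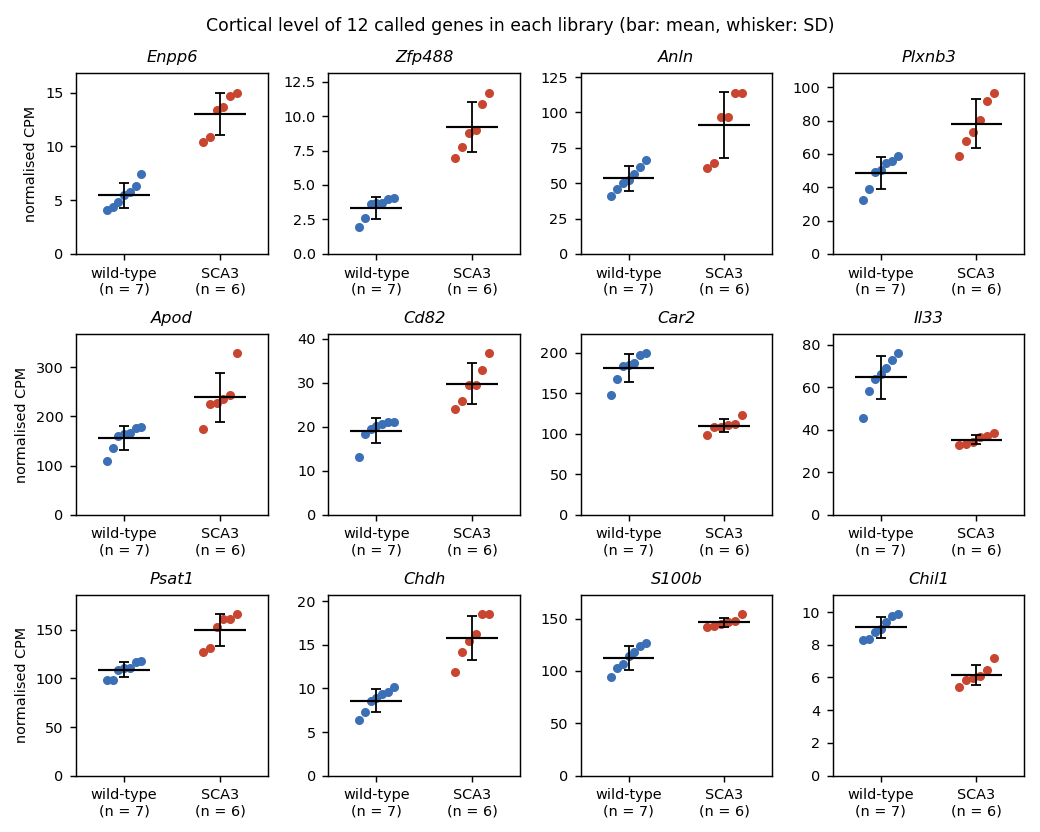
Normalised CPM (y axis, starting at 0) of 12 called genes in each wild-type (blue, n = 7) and SCA3 (red, n = 6) cortical library, with the group mean as a bar and the SD as a whisker. The ranges of Anln, Plxnb3 and Apod overlap, and those of the other 9 genes do not.

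The marker lists of this lineage were described as a whole. Of 20 tested markers of oligodendrocyte precursors and premyelinating oligodendrocytes, 2 were called higher (Enpp6 and Zfp488) and 0 lower, beside 0.242% and 0.0404% of all genes. The median log2 fold change of the list was 0.2, and 16 of the 20 were positive, beside 49.5% of all genes. At an unadjusted p below 0.05, 8 of the 20 were higher and 0 lower, beside 2.06% and 0.905% of all genes. With the first 2 principal components as covariates, added after seeing the data, 6 of the 20 were called higher and 0 lower, in a fit that called 118 of all 12372 genes higher (0.954%) and 31 lower (0.251%). The lists were written with earlier results of these data known, so this count is no independent evidence of a direction. Among members that were not called, Olig1, a transcription factor of the lineage, lay at 66.9, 94.8 and 123 CPM in wild-type and at 112, 124 and 155 CPM in SCA3 (log2 0.43, SE 0.15, FDR 0.52). Bcas1, a marker of early myelinating cells, had a log2 difference of 0.52 (SE 0.22, FDR 1), and Sox8 one of 0.38 (SE 0.12, FDR 0.26). The precursor markers Pdgfra and Cspg4 had differences of -0.03 (SE 0.17) and 0.05 (SE 0.16). The summed level of the list was 909 to 1210 CPM in wild-type and 1110 to 1380 CPM in SCA3, so the sums overlapped.

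The 25 mature oligodendrocyte markers had a median of 0.1, with 15 positive and 10 negative. One member was called in each direction, Anln higher and Car2 lower, beside 0.242% and 0.0404% of all genes, and at an unadjusted p below 0.05 there were 2 higher and 4 lower. Mbp, the myelin basic protein gene, spanned 1190, 2070 and 2740 CPM in wild-type and 1360, 2150 and 2610 CPM in SCA3, with a log2 difference of -0.01 (SE 0.2). Tspan2, a tetraspanin, had a difference of -0.41 (SE 0.14, FDR 0.64) and Mog, a myelin surface glycoprotein gene, one of 0.32 (SE 0.16, FDR 1). The summed level was 3310 to 6720 CPM in wild-type and 3630 to 6060 CPM in SCA3. With the level of the uncalled mature markers as a covariate, an alternative added after seeing the data, 72 genes were called and all 35 were among them.

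Enzymes of serine and choline metabolism held 2 called genes of 18 tested, both higher, beside 0.242% of all genes. Psat1, which makes the precursor of serine, lay at 98.2, 111 and 118 CPM in wild-type and at 127, 157 and 166 CPM in SCA3. It rose in every SCA3 library above the wild-type range, by 0.46 (SE 0.09, FDR 0.00034). Chdh, the mitochondrial choline dehydrogenase that leads choline to betaine, lay at 6.35, 8.96 and 10.2 CPM in wild-type and at 11.9, 15.9 and 18.5 CPM in SCA3, again without overlap, and rose by 0.87 (SE 0.14, FDR 1.6e-06). Chdh shares 9.47% of its exon bases with Cacna1d on the opposite strand, and the counting did not use strand. The neighbouring enzymes Phgdh and Psph had differences of 0.27 (SE 0.21, FDR 1) and -0.05 (SE 0.12, FDR 1). The median of the list was -0.05.

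Of 17 astrocyte markers 1 was called, beside 0.283% of all genes, and the list's median was -0.1 with 13 negative. S100b, a calcium-binding protein of astrocytes that oligodendrocyte cells also express, lay at 94.5, 114 and 127 CPM in wild-type and at 142, 146 and 154 CPM in SCA3. The groups did not overlap, and S100b rose by 0.38 (SE 0.082, FDR 0.0034). The astrocyte markers Slc1a2 (-0.16, SE 0.13), Gfap (-0.23, SE 0.18) and Aqp4 (-0.02, SE 0.16) were not called. At an unadjusted p below 0.05, 3 markers were lower, Fgfr3 (-0.2, SE 0.078), Aldoc (-0.22, SE 0.088) and Glul (-0.2, SE 0.093), each with FDR 1, and 1 (S100b) was higher. Chil1, a secreted chitinase-like protein of astrocytes that was not on the list, lay at 8.30, 8.99 and 9.86 CPM in wild-type and at 5.42, 6.03 and 7.19 CPM in SCA3 and fell by 0.56 (SE 0.1, FDR 8e-05) without overlap.

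Among genes of signalling and the membrane, Rnf43, a ubiquitin ligase that removes Wnt receptors from the cell surface, rose by 0.88 (SE 0.13, FDR 1.9e-08), from 3.34, 3.51 and 4.31 CPM to 5.26, 6.65 and 8.46 CPM without overlap. P2rx7, an ATP-gated cation channel, rose by 0.43 (SE 0.094, FDR 0.0035), from 11.9, 14.1 and 15.1 CPM to 15.9, 18.9 and 21.1 CPM, also without overlap. Tmc3, a member of the transmembrane channel-like family, rose by 1.17 (SE 0.18, FDR 9.5e-08), from 2.75, 3.82 and 4.65 CPM to 4.95, 8.63 and 9.76 CPM. Its exons share 43.9% of their bases with the antisense gene Gm16638, so its value is uncertain. Entpd2, an enzyme that breaks down extracellular ATP, fell by 0.6 (SE 0.15, FDR 0.028), and Lgi4, a secreted protein of myelinating nerve glia, fell by 0.39 (SE 0.095, FDR 0.025). Both overlapped between the groups. Lgi4 shares 44.9% of its exon bases with Fxyd3, and Entpd2 28.8% with Npdc1, so their values are uncertain as well. In all, 8 of the 35 called genes share exon bases with another annotated gene.

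The other increases were spread over several roles. Pla2g4a, the cytosolic phospholipase A2 (0.59, SE 0.14), and Pld1, phospholipase D1 (0.45, SE 0.11), did not overlap between the groups. The called genes also included Abca8a, an ABC transporter (0.66, SE 0.17), and Atp10b, a lipid-flipping ATPase (0.65, SE 0.15). Cytoskeletal and adhesion genes were Flnc, filamin C (0.68, SE 0.17), Ppl, periplakin (0.62, SE 0.15), Nde1, a partner of dynein (0.4, SE 0.097), Kif19a, a kinesin (0.82, SE 0.21), and Cdh19, a cadherin (0.6, SE 0.16). Acan, the aggrecan core protein of perineuronal nets, rose by 0.51 (SE 0.13) and Arhgef10, a guanine nucleotide exchange factor, by 0.46 (SE 0.11). Hist1h2be, a histone H2B gene, was the 1 called of 16 histones, beside 0.283% of all genes (0.66, SE 0.17, FDR 0.039). The remaining called genes were Tmprss5 (0.97, SE 0.19), Nfe2l3 (0.72, SE 0.15), Mob3b (0.81, SE 0.2), Prob1 (0.59, SE 0.12) and the 2 long non-coding RNAs 1700047M11Rik (0.7, SE 0.15) and A330049N07Rik (0.83, SE 0.19). Of these, Tmprss5 and Prob1 did not overlap between the groups.

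Neuronal lists, for which few markers were measured precisely, held 0 called genes in the edgeR test. This was so for 11 upper layer markers (median 0.02), 13 deep layer markers (0.05), 7 general glutamatergic markers (-0.04) and 12 interneuron markers (0.06), and at an unadjusted p below 0.05 none of these passed either. The 95% interval lay within 0.5 on the log2 scale for 2 of the 11, 5 of the 13, 1 of the 7 and 5 of the 12 markers. Of 19 microglial markers 0 were called and 0 passed an unadjusted p of 0.05; the median was 0.03, and Cx3cr1, the fractalkine receptor, differed by 0.02 (SE 0.12). For 18 of these 19 the 95% interval lay within 0.5. Of 16 endothelial markers 0 were called and 1 was higher at that unadjusted level. Markers of pericytes and vascular smooth muscle (7 tested, median 0.08), meningeal fibroblasts (11, 0.17), choroid plexus and ependyma (4, -0.34), striatal projection neurons (14, 0.01), thalamus (9, 0.1), hippocampus (3, 0.21) and olfactory bulb (4, -0.24) held 0 called genes, with 1 higher at that level in each of meningeal fibroblasts, thalamus and hippocampus and 0 in the others.

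**Figure D3:**
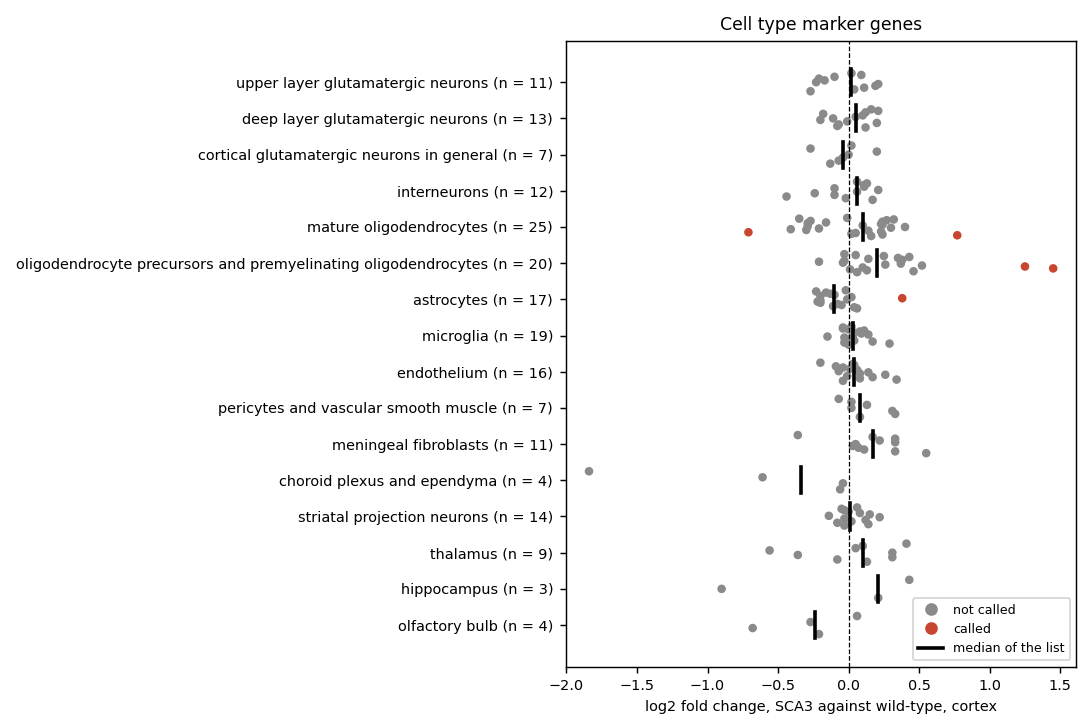
Log2 fold change of SCA3 against wild-type cortex (x axis) for each tested marker of 16 cell type lists (y axis, with the number tested), called genes in red, the others in grey and the list median as a black bar. The called markers are Enpp6, Zfp488, Anln, Car2 and S100b.

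Among pathway lists, 0 genes were called in the edgeR test for glutamate receptors (25 tested, median 0.02, 0 at an unadjusted p below 0.05), GABA-A receptor subunits (11, 0.01, 0), synaptic vesicle release (18, 0, 0), adrenergic receptors (6, -0.02, 0), cAMP and CREB signalling (24, 0.02, 1 higher), heat shock and unfolded protein response (25, -0.02, 0), activity-induced early genes (28, -0.13, 0) and the circadian clock (17, -0.05, 0). The same held for 14 interferon and MHC class I genes (median 0.03, 0 at that level), 72 genes of the respiratory chain (0, 0) and 35 proteasome subunits (-0.03, 0). The 95% interval lay within 0.5 on the log2 scale for 1 of the 6 adrenergic receptors and 4 of the 28 activity-induced genes. The 0 calls therefore do not show that these lists are unchanged. The interval did so for 15 of the 25 glutamate receptors, 8 of the 11 GABA-A subunits and 19 of the 24 cAMP genes. For heat shock, vesicle release, clock and interferon genes it was 22 of 25, 15 of 18, 14 of 17 and 11 of 14. Every respiratory chain and proteasome gene did. All of the 20 cholesterol synthesis enzymes were uncalled, with a median of -0.09, 18 negative and 0 at an unadjusted p below 0.05. Cytosolic ribosomal protein genes had 60 of 69 negative with a median of -0.08, and 4 were lower at that level. Plxnb3 was the 1 called of 47 axon guidance genes, beside 0.283% of all genes. DESeq2, which called 0.404% of all genes, also called Sema4d, a semaphorin (log2 0.23, SE 0.075, edgeR FDR 0.39). DESeq2, the quasi-likelihood F test, limma-voom and RLE size factors also called 0 genes in each cell type or pathway list with 0 called here.

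For 14 of 15 tested partners and relatives of ataxin-3 the 95% interval lay within 0.5 on the log2 scale. Of the 15, 0 were called in the edgeR test and 2 were higher at an unadjusted p below 0.05. Vcp, the ATPase that ataxin-3 binds, lay at 96.2, 103 and 119 CPM in wild-type and at 99.6, 105 and 110 CPM in SCA3 (log2 0, SE 0.076). The 2 at the unadjusted level were the acetyltransferase genes Kat2b (0.33, SE 0.12, FDR 0.75) and Crebbp (0.2, SE 0.083, FDR 1). Of 9 polyglutamine disease genes, all had a 95% interval within 0.5, and Atxn3 alone had an unadjusted p below 0.05. Over all genes the interval lay within 0.5 for 85.2% and within 1 for 98%, and the median SE was 0.11.

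The cortical libraries varied in composition, and the main axes of this variation did not separate the genotypes. The first principal component held 50.7% of the variance, with a share explained by genotype (R²) of 0.00825, the second 16.4% (R² 0.025), the third 12.3% (R² 0.0535) and the fourth 5.39% (R² 0.469). The first set genes such as Neurod6 and Nrgn, of cortical projection neurons, against genes such as Dlk1 and Magel2. Neurod6 ran from 5.52 to 85.3 CPM over the 13 libraries and Slc17a7, the vesicular glutamate transporter of cortical neurons, from 347 to 1580 CPM. Summed striatal markers ran from 1090 to 4340 CPM in wild-type and from 1190 to 5420 CPM in SCA3, and summed choroid plexus and ependyma markers from 28.3 to 1060 CPM and from 21.9 to 244 CPM. The defining red blood cell genes were not among the genes tested (0 of 7). With the first 2 components as covariates, added after seeing the data, 149 genes (1.2%) were called, 118 higher and 31 lower, and all 35 were among them. Without the 3 libraries highest in striatal markers, 14 genes were called, and all 14 were among the 35.

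**Figure D4:**
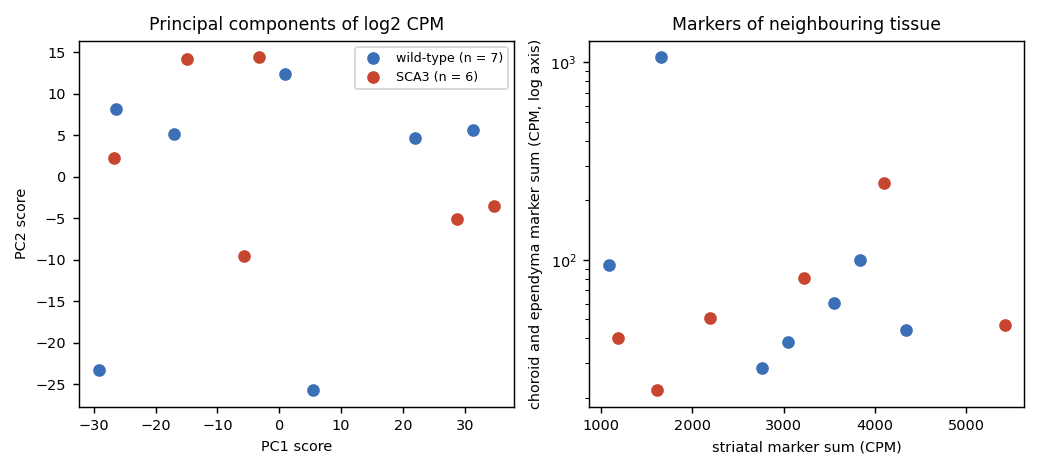
Left, scores of the cortical libraries on the first (x axis) and second (y axis) principal component of log2 CPM; right, summed CPM of striatal markers (x axis) and of choroid plexus and ependyma markers (y axis, log scale), for wild-type (blue, n = 7) and SCA3 (red, n = 6). The genotypes intermix in both panels, and 1 wild-type library stands apart with a choroid plexus and ependyma sum of 1060 CPM.

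Other measures of the cortical samples were tested by permutation of the genotypes over all 1716 arrangements (exact, two-sided). RNA integrity number was 7.83 ± 0.125 in wild-type (SD, n = 7) and 7.95 ± 0.152 in SCA3 (n = 6; exact p = 0.19, adjusted over 4 measures 0.38). Library totals were 51.6 ± 14.8 and 57.1 ± 8.72 M counts (M for mega, exact p = 0.44, adjusted 0.54), from 35.5 to 76.7 M. SCA3 mice weighed 31.0 ± 2.55 g against 43.9 ± 5.85 g (exact p = 0.0012, adjusted 0.0048), with no overlap of the groups. Age differed by -0.452 weeks (exact p = 0.54, adjusted 0.54). The part of bodyweight in the gene differences was not tested.

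The leading digits of the mouse numbers form 3 series, whose meaning the labels do not give. Within the largest series (4 wild-type and 3 SCA3 cortices) 16 genes were called, 12 of them among the 35, and within the next (2 and 2) 28 were called, 6 of them among the 35. In the largest series the SCA3 mice were 74 and the wild-type mice 75 weeks old, so age and genotype cannot be told apart there. With the series as a covariate 42 genes were called, 36 higher and 6 lower, 32 of them among the 35. Zfp488 rose by 1.51 within the largest series (FDR 8e-05) and differed by 1.36 within the next (FDR 0.069). Enpp6 rose by 1.08 and 1.73 in these series (FDR 0.00056 and 1.4e-05). Car2 fell by 0.72 within the largest series (FDR 6.7e-07) and had a difference of -0.53 within the next (FDR 0.7). Anln had a difference of 0.63 within the largest series (FDR 0.61) and rose by 1.28 within the next (FDR 0.00025).

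To ask whether the cortical differences were particular to cortex, the cortical effect was tested against the mean effect in the other 3 regions in 1 fit of all 53 libraries. This edgeR test called 0 genes (0%), with 144 genes at an unadjusted p below 0.05. A quasi-likelihood F test and limma-voom with the mouse as a random block also called 0. The 144 genes are a smaller share of the 12372 tested than the 0.05 expected if no gene differed. The 0 calls therefore do not show that the effects are equal in all regions. The 5 genes with the smallest p were Mob3b, Enpp6, Pcsk6, Zic5 and Rufy1. None of them was called. Mob3b had a difference, cortex minus the mean of the others, of 0.8 (SE 0.24, unadjusted p = 0.00089, FDR 1), and Enpp6 one of 0.73 (SE 0.23, unadjusted p = 0.0013, FDR 1). Pcsk6 had a difference of 0.35 (SE 0.12, FDR 1), Zic5 of 1.26 (SE 0.44, FDR 1) and Rufy1 of -0.16 (SE 0.056, FDR 1).

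The regions share mice, so their values are given side by side, all as log2 fold changes of SCA3 against wild-type from the fit of all libraries. Zfp488 had 1.45 (SE 0.18) in cortex, 1.79 (0.17) in brainstem, 1.25 (0.18) in cerebellum and 1.29 (0.18) in striatum. Car2 had -0.72 (SE 0.13) in cortex, -1.26 (0.13) in brainstem, -0.64 (0.13) in cerebellum and -1.26 (0.13) in striatum. Psat1 had 0.46, 0.48, 0.39 and 0.4 (SE 0.11, 0.1, 0.11 and 0.11) in the same order. Enpp6 had 1.25 (SE 0.2) in cortex, 0.2 (0.19) in brainstem, 0.58 (0.2) in cerebellum and 0.76 (0.2) in striatum. Anln had 0.77 (SE 0.19) in cortex, -0.07 (0.18) in brainstem, 0.24 (0.19) in cerebellum and 0.36 (0.19) in striatum. Mob3b had 0.8 (SE 0.21) in cortex, -0.05 (0.2) in brainstem, 0.11 (0.21) in cerebellum and -0.04 (0.21) in striatum. Ppl had 0.62 (SE 0.24) in cortex, 2.14 (0.24) in brainstem, 0.73 (0.24) in cerebellum and 0.9 (0.25) in striatum. The uncalled Zic5 had 0.64 (SE 0.38), -0.06 (0.38), 0.1 (0.38) and -1.88 (0.39) in the same order, so its difference came mostly from striatum. The values of Pcsk6 were 0.24, -0.03, -0.08 and -0.24, and those of Rufy1 -0.03, 0.19, 0.09 and 0.1.

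**Figure D5:**
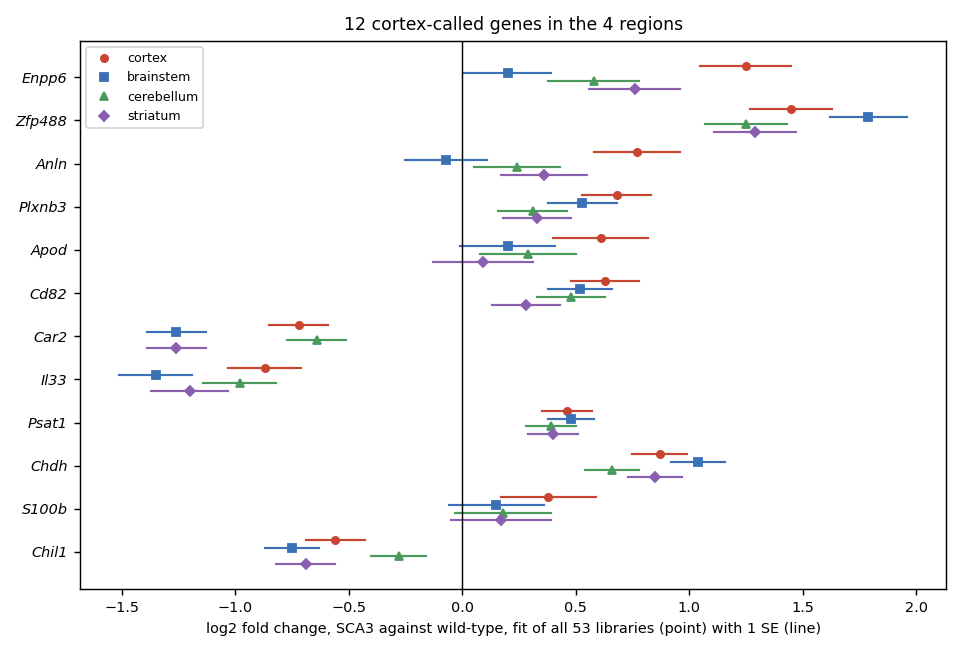
Log2 fold change of SCA3 against wild-type (x axis) with 1 SE as a line for 12 genes called in cortex (y axis), in cortex, brainstem, cerebellum and striatum, from the fit of all 53 libraries. Zfp488, Chdh and Psat1 lie above 0 and Car2, Il33 and Chil1 below 0 in each region, while Enpp6 is 1.25 in cortex and 0.2 in brainstem.

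Levels in the wild-type regions are given for scale. Of the 30 higher genes, 29 had a higher mean log2 level in wild-type brainstem than in wild-type cortex (96.7%, beside 48.3% of all genes). In striatum 28 did (93.3%, beside 49%) and in cerebellum 18 (60%, beside 49.7%). Of the 5 lower genes, 5 did in brainstem, 5 in striatum and 2 in cerebellum. The cause of this pattern was not tested. Enpp6 was at 5.66 ± 1.23 CPM in wild-type cortex (SD, n = 7), 13.5 ± 1.96 in SCA3 cortex (n = 6) and 28.2 ± 8.51 in wild-type brainstem (n = 8), when all libraries were scaled together. Car2 was at 188 ± 18.9 CPM in wild-type cortex, 114 ± 8.47 in SCA3 cortex and 453 ± 73.3 in wild-type brainstem.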

How the data were processed

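Raw read counts per gene, whole numbers with 1 column per library, were deposited by the authors for 12372 genes and 53 libraries. According to their methods, poly-A libraries without strand information were sequenced, reads were aligned to GRCm38 with STAR (2.3.0e in the submitters' processing notes) keeping unique alignments, and counted per RefSeq gene with HTSeq 0.6.1 ignoring strand. Values of genes with overlapping exons or near-identical copies are therefore uncertain. Genes averaging above 4 CPM were kept by the authors.

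Here the 13 cortical libraries (35.5 to 76.7 M counts, M for mega) were fitted on their own with edgeR 4.0.16 in R 4.3.3: TMM normalisation, a dispersion per gene, a likelihood ratio test as in the study and Benjamini-Hochberg adjustment over all genes. Standard errors came from the negative binomial fit with the dispersion taken as known, and fold changes carry 95% intervals from them. Alternatives included DESeq2 1.42.0 and limma 3.58.1 (voom). Scripts were tested on simulated data. Positions came from RefSeq (12343 genes, 99.77%, placed by symbol or synonym) and exon overlaps from GENCODE annotation of GRCm38.

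Named were Atxn3, every called gene, the 5 leading genes of the comparison with other regions, and list members. The naming rule allowed 40 called genes. Outside this rule, Stard13, Nrgn, Dlk1 and Magel2 were named after their values were seen, and genes sharing exons with called genes were named from the annotation. Members, comparisons and all 35 lists (17 of cell types, 18 of pathways) were chosen with earlier results of these data known. Each mouse gave 1 cortical library, so the cortical comparison is unpaired. The same mouse gave libraries of several regions, which pairs them by animal; the correlation estimated for that block was 0.14. Libraries are separate mice.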

Additional observations from a re-analysis of the deposited data

Results flagged for a closer look

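Of 118 groups of cortical libraries examined, 12 held a library far from the others by Dixon's criterion. Chance flags about 1 in 20 groups, and the reason for each was not tested. In wild-type cortex, Rnf43 was 4.31 CPM in mouse 9082857 with the next library at 3.63, and Zic5 was 5.06 CPM in mouse 9083371 with the next at 2.43. Wild-type mouse 7267058 stood apart for 4 genes: Cd82 at 13.1 CPM (next 18.4), Nde1 at 17.5 CPM (next 19.9), Pla2g4a at 3.00 CPM (next 3.82) and Rufy1 at 57.1 CPM (next 52.8). Cdh19 was 13.7 CPM in wild-type mouse 7267055 (next 10.9).

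The summed choroid plexus and ependyma markers were 1060 CPM in wild-type mouse 7267055 (next 100) and 244 CPM in SCA3 mouse 9083514 (next 81.0). The summed thalamus markers were 291 CPM in SCA3 mouse 7267056 (next 162). Mice 9082857 (wild-type) and 9082853 (SCA3) were 77 weeks old, and the others of their groups were at most 75 weeks old.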

How the results depend on the processing

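The 35 called genes kept their direction in all 1117 combinations of gene and alternative; the call held in 746 and was lost in 371. Enpp6, Tmc3 and Chdh (3 genes) were called under every alternative other than leaving out a library, and 16 of the 35 were called whichever library was left out. Without 1 library the total ran from 17 to 54, the higher genes from 14 to 48 and the lower from 3 to 10. It was 17 without SCA3 mouse 9083514, 20 without SCA3 7267056, 21 without wild-type 9083372 and without wild-type 9083375, 22 without SCA3 7267054, 23 without SCA3 9083515 and 54 without SCA3 9082853; the cause was not tested.

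Quasi-likelihood and limma-voom tests of the cortical libraries each called 10 genes (7 higher, 3 lower), and DESeq2 50 (8 lower). RIN as a covariate gave 17 (13 higher) and age 24 (17 higher). The largest series of mouse numbers alone gave 16 (12 higher) and the next alone 28 (13 higher, 15 lower), each from fewer samples, and the series as a covariate 42 (36 higher, 6 lower). The fit of all 53 libraries gave 19 (15 higher). Limma-voom on all libraries gave 9 (7 higher, 2 lower) with the mouse as a random replicate block and 11 (9 higher, 2 lower) without the block; a block by mouse cannot enter the cortical libraries alone, since each mouse gave 1.

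Alternatives added after seeing the data gave 81 (70 higher, 11 lower) with the first principal component as a covariate, 149 (118 higher, 31 lower) with the first 2, 72 (57 higher, 15 lower) with the mature oligodendrocyte marker level, 41 with the striatal marker level, and 14 (10 higher) without the 3 libraries highest in striatal markers. RLE size factors gave 36, a minimum of 10 counts 35 and a mean above 4 CPM in cortex 29.

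The test of cortex against the other regions called 0 genes under all of its alternatives, with 64 to 476 genes at an unadjusted p below 0.05 when 1 mouse was left out. The bodyweight difference ran from -13.9 to -11.2 g without 1 mouse. The age difference ran from -0.886 to -0.167 weeks and passed an unadjusted exact permutation p of 0.05 only without SCA3 mouse 9082853 (-0.886 weeks, exact p = 0.035). At 35.5 M counts or more per library and 6 or 7 mice per group, the 95% interval of a gene's difference lay within 0.5 on the log2 scale for 85.2% of genes, and the median SE was 0.11.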
